A study of Mus musculus with 6 samples.

Results

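The transcripts of 9 transcription regulators that build the early gonad, Nr5a1, Nr0b1, Wt1, Gata4, Zfpm2, Lhx9, Cbx2, Six4 and Emx2, were followed in fetal mouse testes with and without Dmrt1. A probe set, a group of oligonucleotides against 1 transcript, was taken where the platform annotation gave it exactly 1 gene symbol equal to one of these names. This gave 19 probe sets among the 45101 of the array, and 16 of them, covering all 9 genes, passed a filter on low intensity and were tested. The arrays measured testes at E13.5, shortly after the testis has formed, from mice outcrossed to the 129S6/SvEvTac strain. There were 3 control and 3 null samples, each titled as a separate biological replicate. The controls are Dmrt1 (+/-) in their descriptions and genotype entries and in the series design, but wild type in their titles. The nulls are Dmrt1 (-/-), except that their genotype entry reads flox/flox, and a Cre driver is not named in the labels. The groups are called control and null, and whole testes were measured, so fewer cells of a type and less RNA per cell cannot be told apart. Values of single arrays are intensities as deposited, listed for replicates 1, 2 and 3 in that order.

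These factors act before and during sex determination, when the coelomic epithelium thickens into a bipotential gonad. Wt1, Emx2, Lhx9, Cbx2, Six4 and Gata4 with its cofactor Zfpm2 are needed for the gonad to form or for Sry to be expressed, and several of them act on Nr5a1. Nr5a1 encodes steroidogenic factor 1, an orphan nuclear receptor that drives genes of Sertoli cells and of steroid-producing cells. Dmrt1, a DM domain factor of Sertoli cells and germ cells, acts later, in keeping the testis and its germ cells.

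The 6 arrays had median intensities of 14.6 to 14.8, and their number limits the precision. Dmrt1 followed the labels, with 841 ± 171 in controls and 33.0 ± 13.4 in nulls (intensity, mean ± SD, n = 3 each, limma adjusted p = 0.00388). For Actb the 3' control probe set, set against the 5' one as a sign of RNA quality, was 2.75 times as bright in null replicate 3, and 1.91 to 2.15 times elsewhere. The last number of each sample description runs from 1 to 3 in the nulls and from 4 to 6 in the controls, so whatever it stands for cannot be told apart from the genotype.

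Promoter sequence was available for 4 of the 9 genes, Nr0b1, Six4, Lhx9 and Emx2, in the RefSeq table for build GRCm38.p6. Nr0b1 and Six4 are printed, because they hold the probe sets with the smallest p above and below the controls among these 4. Each run is the 250 bases before an annotated start, with matches to 7 searched motifs in capitals. For Nr0b1 the window is chrX:86191525-86191774 on the plus strand, and the capitals mark AGGTCA, the hexamer bound by many nuclear receptors and the end of the NR5A1 site TCAAGGTCA. For Six4 the window is chr12:73113426-73113675 on the minus strand, before the more upstream of 2 annotated starts, and the capitals mark CCAAT.
Nr0b1 promoter: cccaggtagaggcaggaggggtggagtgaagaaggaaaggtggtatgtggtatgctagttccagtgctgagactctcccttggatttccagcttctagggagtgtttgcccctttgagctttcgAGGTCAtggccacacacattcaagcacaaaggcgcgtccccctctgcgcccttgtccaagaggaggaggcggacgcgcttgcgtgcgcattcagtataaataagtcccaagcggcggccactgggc
Six4 promoter: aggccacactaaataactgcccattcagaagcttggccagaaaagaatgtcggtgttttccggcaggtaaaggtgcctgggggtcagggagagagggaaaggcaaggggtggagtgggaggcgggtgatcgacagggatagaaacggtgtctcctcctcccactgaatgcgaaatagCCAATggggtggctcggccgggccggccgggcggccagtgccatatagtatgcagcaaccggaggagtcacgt

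In the Nr0b1 window AGGTCA lay 126 to 121 bases before the start, and 14% of the 32851 promoter windows of the table hold AGGTCA on either strand. The full site in the exact spelling TCAAGGTCA was in 0.387% of windows and in none of the 5 windows of these 4 genes. Other spellings of the NR5A1 site were not searched, and the Nr0b1 window reads tcgAGGTCA at its match. The window before the other Six4 start, 99 to 91 bases ahead of it, holds TCAGGTTTC, the MEF3 site bound by Six4 and its relatives, on the opposite strand, where it reads as its complement in the capitals that follow.
Six4 site, chr12:73113326-73113354, minus strand: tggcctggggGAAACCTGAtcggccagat
TCAGGTTTC was present in 0.387% of windows. GATAA, the core read by GATA factors, was in the Lhx9 window and in 22.6% of all windows, and CCAAT was in the Lhx9, Emx2 and printed Six4 windows and in 33.8% of all. The homeodomain core TAATTA, in 4.84% of windows, and ACANTGT, the core of the DMRT1 site, in 6.47%, had no match in the 5 windows. AGGTCA lies inside TCAAGGTCA, so those counts overlap, and a match describes letters and not binding.

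None of the 16 tested probe sets passed the test, a limma adjusted p under 0.05, which 0.0272% of the 22082 tested probe sets passed. The smallest adjusted p among them was 0.773. At an unadjusted limma p under 0.05 there were 3, against 6.04% of all probe sets. Of these, Nr5a1 and Nr0b1 lay above the controls, against 2.75% of all probe sets, and 1 of the 3 tested Six4 probe sets lay below them, against 3.28%. These 3 were also the ones whose groups did not overlap, as was the case at 12.8% of all probe sets, 6.73% with the nulls higher and 6.06% with the nulls lower. Over the 16 the median log2 difference, null minus control, was -0.04, against 0.01 over all probe sets tested. Of the 16, 7 lay above and 9 below 0, and 11 lay within 0.25 of 0. Of all 22082 tested, 51.9% lay above 0 and 17544 lay within 0.25 of 0. The differences of the 16 ranged from -0.47 to 0.55.

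**Figure D1:**
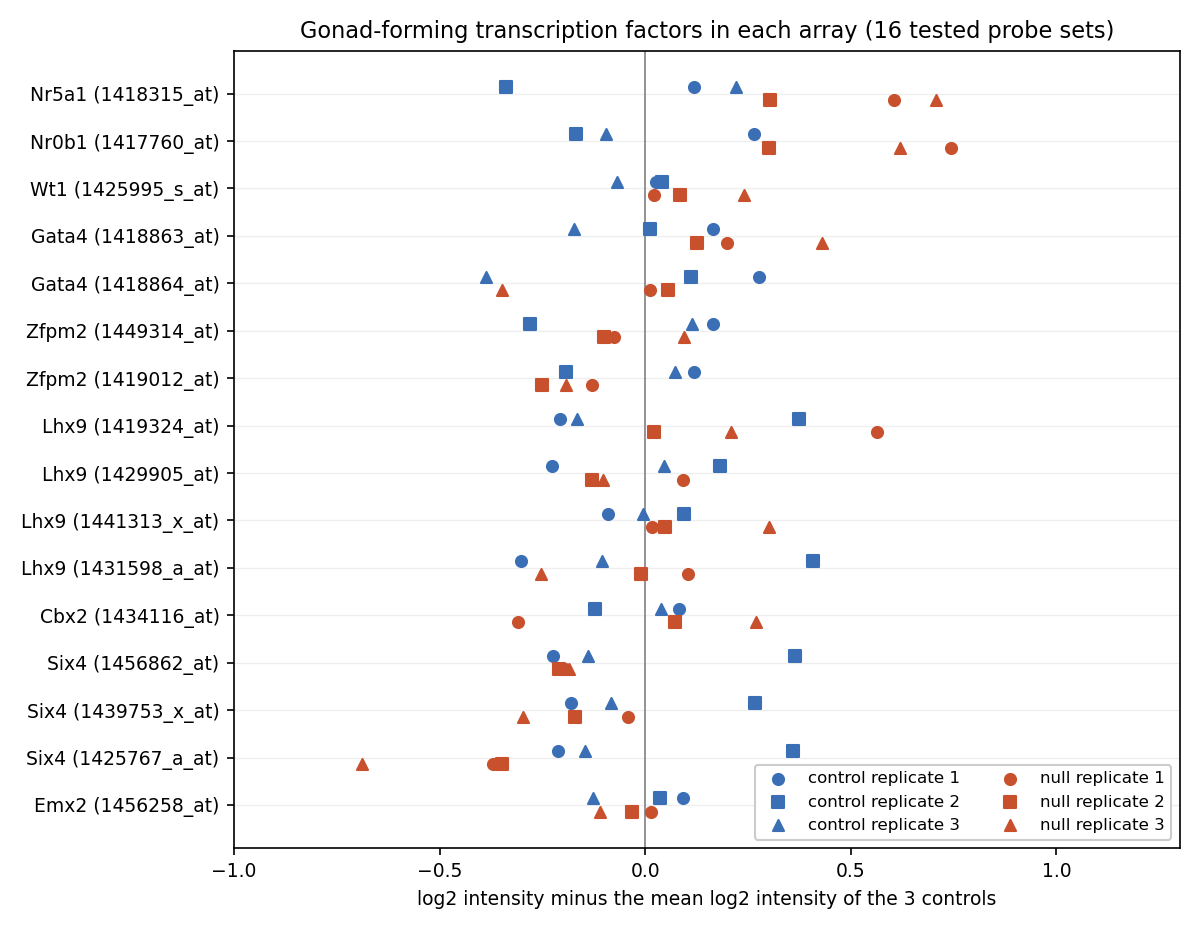
Log2 intensity of each tested probe set in each array, minus the mean log2 intensity of the 3 controls, on the horizontal axis, with 1 row for each of the 16 probe sets. Colours mark control and null and shapes mark the replicate number. The null points of Nr5a1 and Nr0b1 lie right of all their control points, those of Six4 1425767_a_at lie left of all of theirs, and the groups overlap in the other 13 rows.

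Nr5a1, the nuclear receptor steroidogenic factor 1, had intensities of 778, 566 and 835 in the controls. In the nulls its intensities were 1090, 884 and 1170. All nulls lay above all controls, though null replicate 2 was close to control replicate 3, and control replicate 2 was the lowest array. The null level was 1.45-fold the control level (95% confidence interval 1.10 to 1.91), a log2 difference of 0.54 with a standard error of 0.17 (limma unadjusted p = 0.0139, adjusted p = 0.773). Omitting control replicate 2 gave a difference of 0.37, and omitting null replicate 2 gave 0.66. Without null replicate 3, the array with the high Actb ratio, it was 0.45 and the limma unadjusted p of Nr5a1 was 0.0543. The second Nr5a1 probe set, 1421730_at, was near background at 7.14 to 8.47 in all arrays and was not tested.

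Nr0b1, also called Dax1, is an orphan receptor without a DNA-binding domain that binds Nr5a1 and restrains it, and it is itself a target of Nr5a1. Its intensities were 158, 117 and 123 in the controls and 220, 162 and 202 in the nulls. The groups were set apart by a narrow gap, from 158 in the highest control to 162 in the lowest null. The null level was 1.47-fold the control level (95% confidence interval 1.10 to 1.96), with a log2 difference of 0.55 and a standard error of 0.18 (limma unadjusted p = 0.0149, adjusted p = 0.773). Leaving out single arrays moved the Nr0b1 difference between 0.46 and 0.69. Both receptors were thus lowest in control replicate 2, and null replicate 2 was the lowest null for each.

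Control replicate 3 and null replicate 2 carry the same leading number in their descriptions, a number that the labels do not explain. Between these 2 arrays the log2 difference, null minus control, was 0.08 for Nr5a1 and 0.40 for Nr0b1. It was 0.30 for the brighter Gata4 probe set, -0.20 for Six4 1425767_a_at and 0.15 for Wt1. The Nr5a1 difference was therefore smaller in this pair than over all arrays, with no replicate behind the pair's value.

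Gata4, a zinc finger factor of the somatic gonad that binds the Amh promoter with Nr5a1, had 2 tested probe sets, both designed on the same transcript. The brighter, 1418863_at, gave 1190, 1070 and 942 in the controls and 1220, 1160 and 1430 in the nulls. Only control replicate 1 reached into the range of the nulls, and null replicate 3 was the highest array. The log2 difference was 0.25 with a 95% confidence interval of -0.03 to 0.53 (limma unadjusted p = 0.0715, adjusted p = 0.773). It was 0.16 without null replicate 3 and also without control replicate 3, 0.33 without control replicate 1 (limma unadjusted p = 0.0339), and 0.08 when both Gata4 probe sets were averaged. The dimmer Gata4 probe set, 1418864_at, ranged from 48.2 to 76.3 in controls and from 49.5 to 65.5 in nulls, with a log2 difference of -0.09 and a 95% confidence interval of -0.59 to 0.40. The 2 probe sets thus differed in sign, and the interval of the dimmer one holds the difference of the brighter.

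Zfpm2, also called Fog2, is the cofactor that Gata4 needs in the gonad. Its brighter probe set, 1449314_at, gave 1430, 1050 and 1380 in the controls and 1210, 1190 and 1360 in the nulls. The nulls lay inside the range of the controls, whose lowest array was again replicate 2. The log2 difference was -0.03 with a 95% confidence interval of -0.33 to 0.28 (limma adjusted p = 0.975). The dimmer Zfpm2 probe set, 1419012_at, lay between 17.1 and 22.1 in all arrays, close to the filter, with a difference of -0.19.

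Wt1, the Wilms tumour zinc finger factor of Sertoli cells and coelomic epithelium, was among the members with the least spread between arrays. Its intensities were 3790, 3830 and 3550 in the controls and 3780, 3950 and 4400 in the nulls. The groups overlapped through null replicate 1, and the highest array was only 1.24 times the lowest. The log2 difference of Wt1 was 0.12 with a 95% confidence interval of -0.04 to 0.28, that is 0.970-fold to 1.21-fold (limma unadjusted p = 0.132, adjusted p = 0.778). Without null replicate 3, the array with the high Actb ratio, the Wt1 difference was 0.05. The within-group standard deviation of Wt1 was 0.09 on the log2 scale, against a median of 0.18 over all probe sets tested.

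Cbx2, also called M33, is a chromodomain subunit of Polycomb repressive complex 1 whose loss turns male gonads toward the female course. Probe set 1434116_at gave 630, 547 and 611 in the controls and 480, 625 and 717 in the nulls. The nulls held both the lowest and the highest of the 6 values. The log2 difference was 0.01 with a 95% confidence interval of -0.36 to 0.38 (limma adjusted p = 0.993), and omitting 1 array at a time gave -0.12 to 0.17. The other Cbx2 probe set was near background, at 5.81 to 8.53, and was not tested.

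Emx2, Lhx9 and Six4 are homeodomain factors. Emx2, needed for the urogenital epithelium, was the member with the smallest ratio between highest and lowest array, 1.16. It gave 2050, 1970 and 1760 in the controls and 1940, 1880 and 1780 in the nulls. All 3 nulls lay within the range of the controls. Its log2 difference was -0.04 with a 95% confidence interval of -0.23 to 0.15 (limma adjusted p = 0.919).

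Lhx9, a LIM homeodomain factor of the gonadal surface that binds the Nr5a1 promoter, had 4 tested probe sets, with differences on both sides of 0. The brightest, 1419324_at, gave 1050, 1570 and 1080 in the controls and 1790, 1230 and 1400 in the nulls. Control replicate 2 and null replicate 1 were the highest of their groups, and the groups overlapped. The log2 difference was 0.26 with a 95% confidence interval of -0.17 to 0.70 (limma unadjusted p = 0.199, adjusted p = 0.798). This difference was 0.45 without control replicate 2 (limma unadjusted p = 0.0244), 0.16 without control replicate 1 and 0.11 without null replicate 1, and it was 0.07 when the 4 probe sets were averaged. The other Lhx9 probe sets differed by -0.05 for 1429905_at, 0.12 for 1441313_x_at and -0.05 for 1431598_a_at. Probe sets whose names end in x_at or s_at can bind related transcripts, and those in a_at bind several transcripts of 1 gene.

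Six4, a homeodomain factor that acts on Nr5a1 and on Zfpm2 in the gonad precursor, had a negative log2 difference at all 3 tested probe sets. Only at 1425767_a_at did the groups not overlap. Probe set 1425767_a_at gave 308, 457 and 322 in the controls and 276, 280 and 221 in the nulls. All nulls lay below all controls, and control replicate 2 stood well above the other controls. The null level was 0.722-fold the control level (95% confidence interval 0.537 to 0.971), a log2 difference of -0.47 with a standard error of 0.18 (limma unadjusted p = 0.0350, adjusted p = 0.773). Without control replicate 2 this Six4 difference was -0.29 (limma unadjusted p = 0.115), and without null replicate 3 it was -0.36 (limma unadjusted p = 0.115). When the 3 tested Six4 probe sets were averaged, the difference was -0.28 (limma unadjusted p = 0.105, adjusted p = 0.715).

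The other 2 tested Six4 probe sets, 1456862_at and 1439753_x_at, were designed on 1 and the same source sequence and are not independent. At 1456862_at the controls gave 799, 1200 and 847 and the nulls 815, 807 and 821, with a log2 difference of -0.20 (limma adjusted p = 0.814). At 1439753_x_at the controls gave 726, 990 and 777 and the nulls 800, 732 and 670, with a log2 difference of -0.17 (limma adjusted p = 0.820). In both, the control mean was raised by replicate 2, and without it the differences were -0.01 and -0.04. The fourth Six4 probe set, 1427701_a_at, was near background at 6.55 to 9.04 and was not tested.

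**Figure D2:**
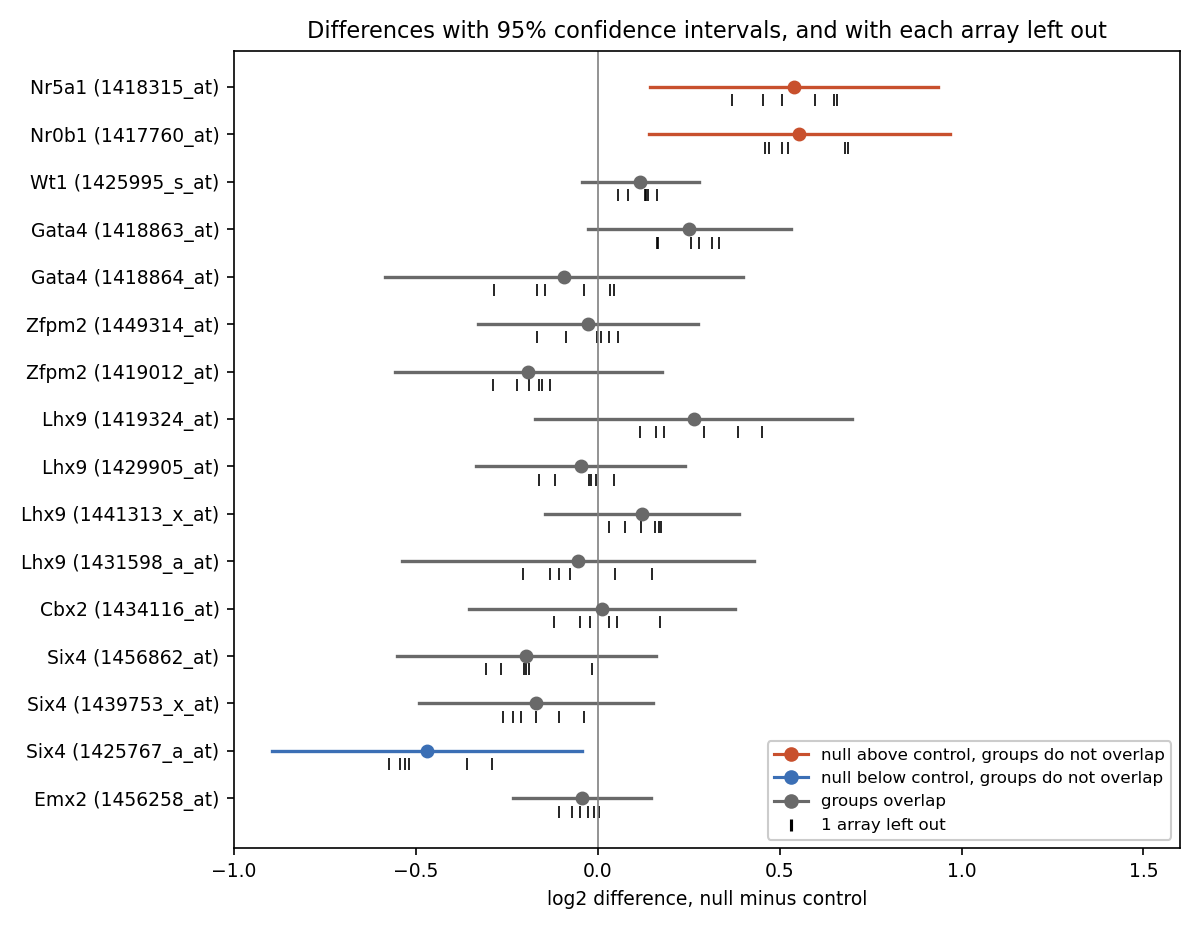
Log2 difference, null minus control, of each of the 16 tested probe sets (point) with its 95% confidence interval from limma (line), and the difference with each array left out in turn (short ticks below). The intervals of Nr5a1 and Nr0b1 lie above 0 and that of Six4 1425767_a_at lies below 0, while the other 13 intervals include 0 and no probe set passed the adjusted test.

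Other filters, eBayes settings, the replicate block and a choice among probe sets leave a difference unchanged and could not turn its direction. The direction of the difference did not turn in any of the alternatives run, arrays left out included, at 10 of the 16 probe sets. These were the tested probe sets of Nr5a1, Nr0b1, Wt1 and Six4, the brighter of Gata4, the dimmer of Zfpm2, and 1419324_at and 1441313_x_at of Lhx9. It turned in at least 1 alternative for Cbx2, Emx2, the dimmer Gata4, the brighter Zfpm2 and the other Lhx9 probe sets. Per array, the within-group standard deviation on the log2 scale ran from 0.09 for Wt1 and Emx2 to 0.30 for Lhx9 1419324_at. Nr5a1 and Six4 1425767_a_at, each at 0.26, were above the median of 0.18 over all probe sets.

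Markers of the cells that carry these factors were set beside them. Sertoli cell markers had a median difference of -0.04 over 17 tested genes, 8 above and 9 below 0. Over all genes, by the brightest probe set, 56.3% lay above 0. Only Cst9 passed the test, and it fell. At an unadjusted limma p under 0.05, 4 lay below the controls, Cst9, Aard, Hsd17b1 and Sox8, and 1 above, Tesc. The shares of all probe sets were 3.28% below and 2.75% above. The summed intensity of the 17 Sertoli markers was 29601 to 30420 in controls and 25170 to 27664 in nulls. Cst9 and Aard, a transcript of fetal Sertoli cells at -0.43, made up most of that gap, and the sums without them, a check chosen after their values were seen, were 20910 to 21471 in controls and 20390 to 21905 in nulls, which overlap. Sox9, the factor that sets Sertoli cell fate, had a difference of -0.34 with a standard error of 0.32 (limma unadjusted p = 0.329). Its groups overlapped, with 877, 419 and 485 in the controls and 298, 554 and 535 in the nulls. Amh, the anti-Müllerian hormone, had a difference of 0.06. Foxl2, which defines the ovarian counterpart of Sertoli cells, was below the filter in this tissue, as was Irx5. The other 5 of 7 listed ovarian markers were tested, 3 above and 2 below 0, and none passed the test. Their differences ran from -0.58 for Fst to 0.61 for Irx3, with a median of 0.03.

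Fetal Leydig cells, which make androgen under Nr5a1, varied widely within each group. Their summed marker intensity was 5473, 11941 and 13063 in the controls and 16461, 5499 and 4337 in the nulls. In null replicate 1, with the highest Leydig sum, Nr5a1 was at 1090 and Nr0b1 at 220, and in null replicate 3, with the lowest, they were at 1170 and 202. All 7 tested Leydig markers lay below 0, none passed the test, and the median difference was -0.43. The part of Leydig cells in the Nr5a1 and Nr0b1 values was not tested.

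Markers of coelomic epithelium and mesothelium, where Lhx9, Wt1 and Emx2 are also expressed, had summed intensities of 6047, 10933 and 7799 in the controls. In the nulls the sums were 11290, 8037 and 7504. The brightest Lhx9 probe set, 1429905_at and 1431598_a_at were highest in the same arrays as this list, null replicate 1 and control replicate 2. Wt1 and Lhx9 1441313_x_at were highest in null replicate 3, and Emx2 in control replicate 1. All 7 tested genes of the list lay above 0, with a median difference of 0.15, none passed the test, and their part in the Lhx9 values was not tested.

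Control replicate 2, lowest for Nr5a1 and highest for each tested Six4 probe set, also stood apart in other cell types. Its median endothelial marker level was -1.05, on the log2 scale relative to the mean of the 6 arrays, against -0.51 to 0.54 in the others. Its germ cell level was 0.82, against -0.34 to 0.09. The summed intensity of endothelial markers was 1581 to 3960 in controls and 2409 to 4355 in nulls, and that of germ cell markers 11128 to 19686 and 11038 to 14201. The medians of the differences were 0.20 over 12 endothelial genes and -0.32 over 11 germ cell genes, and no gene of either list passed the test. Their part in the Nr5a1 and Six4 values was not tested.

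The adrenal cortex lies close to the gonad and expresses Nr5a1 and Nr0b1 strongly. Of 5 adrenal markers on the array, Cyp11b1, Cyp11b2 and Mrap were below the filter, and Mc2r and Cyp21a1 had differences of 0.30 and 0.02. Their summed intensity was 262, 140 and 168 in the controls and 248, 174 and 247 in the nulls. The lowest array was again control replicate 2, and the groups overlapped. The sum is mostly Mc2r, at 119 to 247, since Cyp21a1 lay at 13.9 to 28.9, close to the filter. Mc2r is also on the list of Nr5a1 and Gata4 targets. The part of adrenal RNA in the Nr5a1 and Nr0b1 values was not tested.

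**Figure D3:**
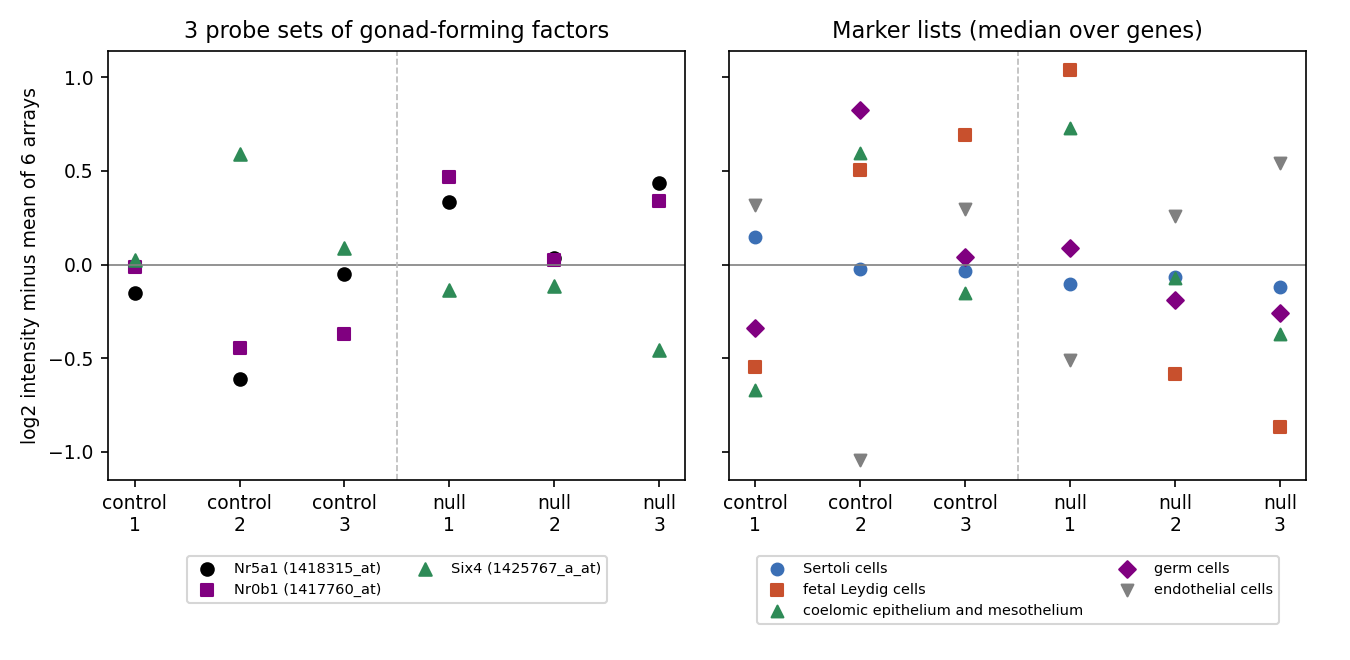
Log2 intensity relative to the mean of the 6 arrays, by array. The left panel shows Nr5a1, Nr0b1 and Six4 1425767_a_at and the right panel the median over the genes of 5 marker lists. Nr5a1 and Nr0b1 are low in control replicate 2 and high in null replicates 1 and 3, whereas the Leydig list is highest in null replicate 1 and lowest in null replicate 3.

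Genes that work with these factors in the early gonad and in sex determination were read from a list of 22, of which 16 were tested. None passed the test in either direction, and the median difference was -0.02 with 7 above and 9 below 0. The smallest p belonged to Gadd45g, an activator of the kinase cascade upstream of Sry, at 0.45 (limma unadjusted p = 0.0126, adjusted p = 0.773). Cited2, a cofactor that acts with Wt1 on Nr5a1, was at -0.15, and the FGF receptor Fgfr2 at -0.21. Sry, which is silenced in the testis by this stage, was below the filter, as were Osr1 and Lhx2.

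Known or probable targets of Nr5a1 and Gata4 were as many above as below 0, 9 of 18 each, with a median difference of 0.01, and 0 passed the test in either direction. The 3 with the smallest limma p were Sox8 at -0.59, the anti-Müllerian hormone receptor Amhr2 at 0.34 and the orphan receptor Nr0b2 at 0.37. Only Sox8, a partner of Sox9, had an unadjusted limma p under 0.05, at 0.0329. Amhr2 gave 498, 643 and 656 in the controls and 932, 656 and 702 in the nulls. All tested targets that are also on the Leydig list, Star, Cyp11a1, Cyp17a1, Hsd3b1, Scarb1 and Fdx1, lay below 0. Of the other targets only Sox8, Sox9 and Prps2 did, and the rest lay above 0. The steroidogenic targets varied widely. Cyp11a1, the enzyme that cleaves the cholesterol side chain, ranged from 364 to 2050 in controls and from 215 to 2600 in nulls. Its difference was -0.94 with a standard error of 0.97.

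The other subunits of Polycomb repressive complex 1 had a median difference of 0.02 over 9 tested genes, and none passed the test. Cbx6, a chromodomain paralog of Cbx2, was at -0.24 and the polyhomeotic subunit Phc2 at 0.27, with limma unadjusted p of 0.0200 and 0.0336. Ring1, a ubiquitin ligase of the complex, was at 0.43, with 74.9, 105 and 99.9 in controls and 142, 101 and 134 in nulls, which overlapped. The paralogs of the gonad-forming factors had a median of -0.10 over 10 tested genes, none passing the test. Among them Six5 was at 0.43 (limma unadjusted p = 0.0185), opposite in sign to the 3 Six4 probe sets, and Nr0b2 and Egr1 were at 0.37 and -0.26. Gata5, with 21.7 to 119 in controls and 17.6 to 101 in nulls, and the Nr5a1 paralog Nr5a2, at -0.11, had groups that overlapped.

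**Figure D4:**
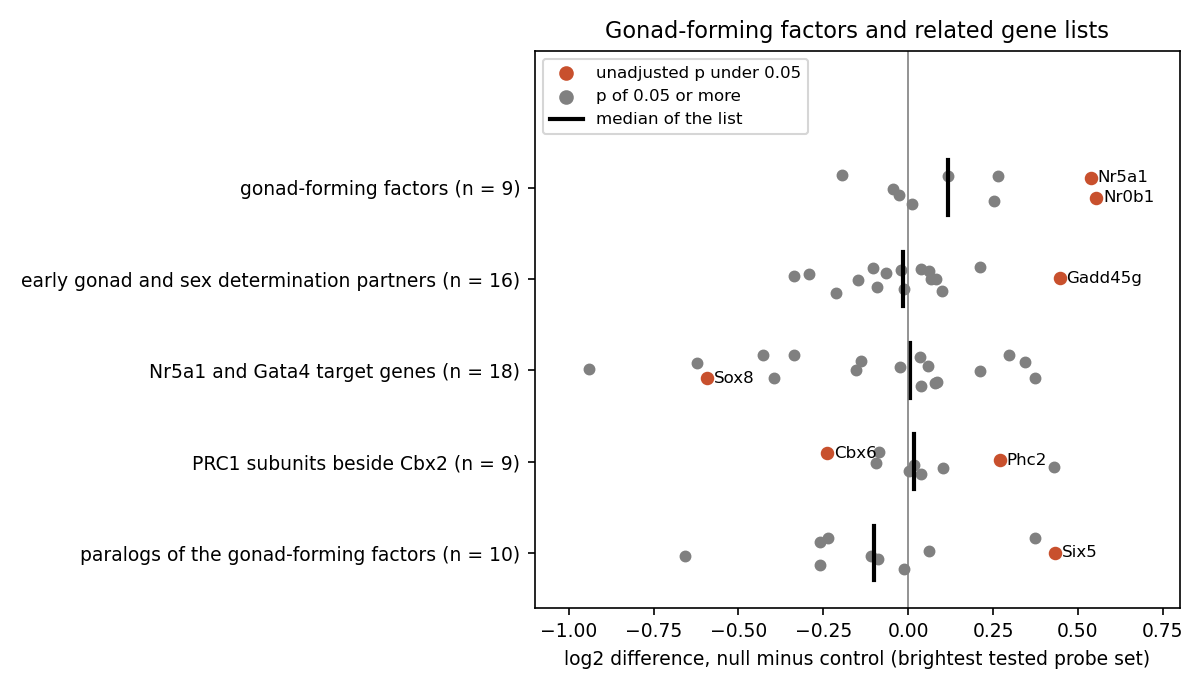
Log2 difference, null minus control, of the brightest tested probe set of each gene, for the 9 gonad-forming factors and 4 related lists. Each point is a gene, coloured where the unadjusted limma p was under 0.05, and the black bar is the median of the list. The medians lie between -0.10 and 0.12, and no gene in these lists passed the adjusted test.

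With 1 probe set per gene, the brightest, 6 of the 9 factors lay above 0 and 3 below, with a median of 0.12. Over 11874 genes 56.3% lay above 0, with a median of 0.03. The genes whose pattern was most like that of Nr5a1 over the 6 arrays, by Pearson correlation of log2 intensity, were Bscl2, Gfer, Cryzl2, Palm and Galnt2, with r of 0.987 to 0.999. An r of at least 0.95 with Nr5a1 was reached by 51 of 11873 genes. For Wt1 the nearest were Ctbp1, Emid1, Ddx54, Cphx3 and Spdl1, with r of 0.981 to 0.993, and 22 genes reached at least 0.95. Among the factors themselves, r was 0.87 between Nr5a1 and Nr0b1 and 0.89 between Wt1 and Gata4, and 0.63 and 0.81 once each group's mean had been removed. With group means removed, the values farthest from 0 among the 36 pairs were 0.90 for Nr5a1 with Zfpm2 and -0.90 for Zfpm2 with Six4. These correlations share arrays and the group difference and are given as a description.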

How the data were processed

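Per the labels' protocols, testis RNA was amplified and labelled with a NuGen Ovation kit. The intensities deposited by the authors are linear and were made with GCRMA, of a version the labels do not state, per the submitters' processing notes. This method subtracts background and scales arrays to each other, so differences between dim values depend on it, and levels of different genes are not comparable.

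Groups came from the sample titles. Probe sets whose log2 intensities averaged at least 4 were kept, and limma 3.58.1 (R 4.3.3) was fitted over all 22082, with the group as the only term, an intensity trend and Benjamini-Hochberg adjustment. A two-sided adjusted p under 0.05 counted as called. The labels call the samples biological replicates. The test was tried on simulated data. Lists used the brightest tested probe set per gene. The genes named were all 9 factors, Dmrt1, the called or 3 smallest-p genes of each related list, and the 5 genes most like Nr5a1 and Wt1. Marker genes, Cyp11a1, Prps2, Gata5, Nr5a2 and genes below the filter were named as examples after their values were seen. The factors and lists were chosen with earlier results of these data known. Between any 2 arrays 301 to 451 values were equal. Alternatives were other filters, normalizations, eBayes settings, array weights, a replicate block, other handling of probe sets, and leaving out each array.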

Additional observations from a re-analysis of the deposited data

How the results depend on the processing

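No probe set of the 9 factors was called in any alternative run, a count of 0 each, and 252 of 267 alternative values kept their direction. Many of the 252 could not turn. Other filters, eBayes settings, the replicate block and a choice among probe sets leave each difference as it was. Only other scalings, array weights, averaging of probe sets and arrays left out could change a direction. With array weights the difference became 0.16 for the dimmer Gata4 probe set, 0.0078 for Lhx9 1431598_a_at and 0.033 for Emx2, and the Nr5a1 difference was 0.36; the cause was not tested. Leaving out single arrays gave -0.29 to 0.045 for the dimmer Gata4 probe set, -0.17 to 0.056 for the brighter Zfpm2, -0.11 to 0.0027 for Emx2, -0.16 to 0.043 for Lhx9 1429905_at, -0.21 to 0.15 for Lhx9 1431598_a_at and -0.12 to 0.17 for Cbx2. Over all probe sets limma called 6 genes, 1 without the intensity trend, 3 without probe sets of types s_at, x_at and a_at, and 0 to 4 with single arrays left out. The Dmrt1 difference was -5.03 to -4.52 with single arrays left out, and its limma adjusted p was 0.0558 without control replicate 3. With the replicate number as a block, limma called 0 genes (3 probe sets of the factors had an unadjusted p under 0.05) and the Dmrt1 difference of -4.72 had an adjusted p of 0.200. The deviations of same-numbered arrays correlated at -0.59, -0.34 and 0.14, so the numbers were not taken to pair the samples. Between a control and a null of different number the correlation ran from -0.40 to 0.58. Control replicate 2 gave both ends, with null replicate 3 and null replicate 1. Other scalings moved the median of all probe sets by less than 0.1.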
